A study of Mus musculus with 12 samples.

Results

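The ATF4 arm of the integrated stress response was followed through 38 genes, all of which were among the 16080 genes measured in each library. The genes were chosen by name, as transcription factors of the pathway, enzymes of amino acid synthesis and of one-carbon metabolism, amino acid transporters and feedback genes. No threshold on any level or fold change was used, but earlier results of these data were known when the genes were chosen. They were measured by RNA sequencing of alveolar type 2 epithelial cells (AEC2), the surfactant-producing cells of the lung, taken from female mice of the Bl6 strain at postnatal day 56. Their genotype differed at the locus of surfactant protein C (SP-C, encoded by Sftpc). The WT group had SP-C WT, the C185Gneo group had SP-C C185Gneo, which the series names as a hypomorphic control, and the C185G group had SP-C C185G, the BRICHOS-domain mutant, with 4 libraries each. Every group, WT included, received tamoxifen intraperitoneally at 200 mg per kg for 2 days, and cells were isolated on day 7. The sources used here name neither a Cre line nor its promoter. Nor do they state that each library is a separate animal, and p-values therefore rest on the spread between libraries, which may be technical.

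The integrated stress response begins when an eIF2α kinase (PERK for stress of the endoplasmic reticulum, GCN2 for uncharged tRNA, PKR for double-stranded RNA, HRI for haem and mitochondrial stress) phosphorylates the translation initiation factor eIF2α. Bulk protein synthesis then slows, while the mRNA of Atf4, which carries upstream open reading frames, is translated more. The ATF4 protein, paired with C/EBP family partners, binds composite C/EBP-ATF response elements and raises genes for amino acid synthesis, amino acid import, tRNA charging and, through CHOP, cell death and recovery of translation. AEC2 load their endoplasmic reticulum with the SP-C precursor, whose BRICHOS domain assists its own folding, and misfolding variants of it are known to stress that compartment. The mRNA of Atf4 reports its transcription and stability, not the translation step that controls the protein.

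Libraries held 15659512 to 23444287 recovered counts, so that 1 read was worth 0.0428 to 0.0616 normalized CPM. Normalized CPM, the unit of every level here, are counts scaled by the authors' factors, which did not give libraries a common total. Scaled totals over their mean were 0.958 to 0.985 in C185G, 1.003 to 1.021 in C185Gneo and 1.006 to 1.039 in WT. Levels are mean ± SD with n = 4 per genotype, changes are log2 fold changes from limma over all 12 libraries, and calls needed an adjusted p (Benjamini-Hochberg over all measured genes) under 0.05. Groups follow the genotype field of the labels. The titles of the C185Gneo libraries carry the name C185G and those of the C185G libraries another code, and the lowest Sftpc level was that of the C185Gneo group (895 ± 143 against 2833 ± 256 in C185G and 7467 ± 194 in WT). All 11 AEC2 markers of a list, among them Sftpb, Abca3 and Lamp3, were detected in every group. All 11 fell in C185G against WT, where 27.8% of all genes were lower. Their summed level was 33910 to 39725 in WT, 30521 to 34657 in C185Gneo and 14423 to 17163 in C185G. These sums include the edited gene Sftpc. It was the only 1 of the 11 called in C185Gneo against WT (9.09%, beside 0.541% of all genes), where the median change of the list was 0.007. In such bulk preparations fewer AEC2 and less of an mRNA per AEC2 cannot be told apart.

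In C185G cells all 7 serine and one-carbon enzymes, 3 of 5 other amino acid enzymes and 5 of 8 amino acid transporters rose, while Atf4, Atf3, Cebpb, Eif2ak4, Ppp1r15a, Cth, Slc1a5 and Slc38a2 fell. Against WT, limma called 20 of the 38 genes higher and 8 lower, and 10 were not called. Over all measured genes the same test called 27.3% higher and 27.8% lower (55.0% in either direction), while among the 38 genes 52.6% were higher and 21.1% lower. The share of higher genes thus lay above the background and that of lower genes somewhat below it. Because the genes were chosen with earlier results of these data known, these shares are a description only. The median change of the 38 genes was 0.49, and that of all measured genes was 0.00 (-0.000442). All 4 C185G libraries stood above all 4 WT libraries for 20 of the 38 genes, where 25.2% of all genes did so, and below them for 8, where 23.5% did (48.7% either way). Against C185Gneo, limma called 22 higher and 8 lower, with 29.2% and 28.7% of all genes in those directions (57.8% in either), and the median change was 0.48. Libraries of these groups stood apart upward for 19 genes and downward for 8, against 25.7% and 24.2% of all genes (49.9% either way). Both comparisons use the same C185G libraries. With library totals as the scaling between libraries, 59.9% of all calls in C185G against WT were higher in place of 49.6%, and 20 to 21 of the 38 genes were higher and 7 to 9 lower under the alternatives tried with all libraries.

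**Figure D1:**
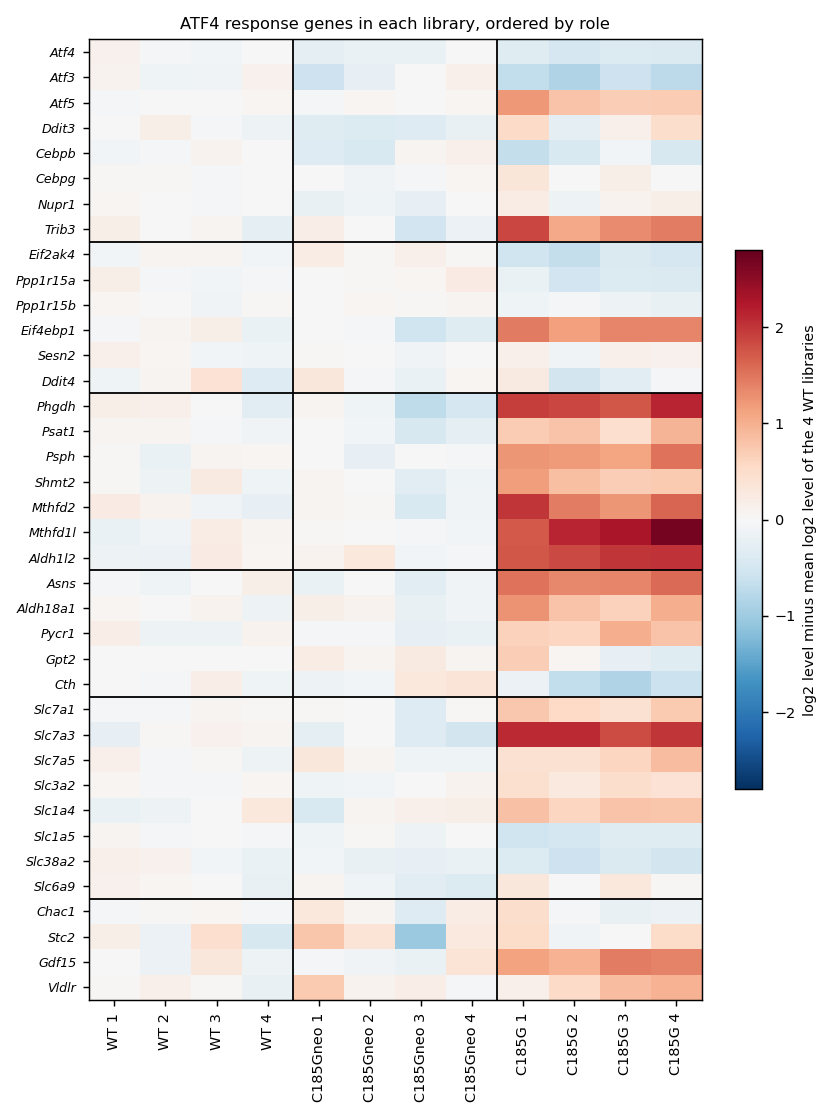
Log2 level of each of the 38 genes (rows, grouped by role and separated by black lines) in each of the 12 libraries (columns), as the difference from the mean log2 level of the 4 WT libraries; red is higher and blue lower. The serine and one-carbon block, Phgdh to Aldh1l2, is red in all 4 C185G libraries, while Atf4, Atf3, Eif2ak4, Slc1a5 and Slc38a2 are blue in all 4.

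Known ATF4 target genes often carry a composite element whose core can be written TGATGNAA, or TTNCATCA on the other strand. RefSeq promoter windows (GRCm38.p6, 250 bases before to 50 after each start) were present for 31 of the 38 genes, and 8 of the 31 (25.8%) held the core on either strand, against 4.51% of the 27025 genes with a window. Of these 8, Asns, Trib3, Slc1a4, Pycr1 and Vldlr rose in C185G against WT, Atf3 fell, and Chac1 and Nupr1 were not called, so promoters with the same letters came with each outcome. The core was found in 5 of 16 risen genes with a window, 1 of 6 that fell and 2 of 9 not called. Because the 38 genes were chosen by name as genes of the ATF4 response, their share above that of all genes is a description only. The genes with a window were not limited to those measured here. To show the element in its setting, 120 bases around each match are printed 5′ to 3′ on the strand of the gene, with the match in capitals.
Asns: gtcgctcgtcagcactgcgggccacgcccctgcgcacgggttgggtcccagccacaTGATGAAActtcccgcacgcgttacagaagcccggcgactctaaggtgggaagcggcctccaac
Atf3: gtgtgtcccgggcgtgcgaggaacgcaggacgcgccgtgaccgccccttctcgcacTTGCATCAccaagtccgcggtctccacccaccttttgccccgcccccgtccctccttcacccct
Chac1: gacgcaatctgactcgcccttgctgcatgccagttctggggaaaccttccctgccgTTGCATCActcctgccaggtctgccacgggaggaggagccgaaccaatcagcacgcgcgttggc
Nupr1: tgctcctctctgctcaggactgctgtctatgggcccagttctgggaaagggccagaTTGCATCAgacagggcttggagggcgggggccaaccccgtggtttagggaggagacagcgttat
Pycr1: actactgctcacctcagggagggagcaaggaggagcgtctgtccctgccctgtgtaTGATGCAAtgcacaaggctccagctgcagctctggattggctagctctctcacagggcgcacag
Slc1a4: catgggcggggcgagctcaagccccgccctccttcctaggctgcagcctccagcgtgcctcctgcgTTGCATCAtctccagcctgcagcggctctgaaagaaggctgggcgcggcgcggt
Trib3: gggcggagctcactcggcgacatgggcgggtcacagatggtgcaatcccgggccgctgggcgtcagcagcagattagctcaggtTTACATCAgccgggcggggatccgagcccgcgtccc
Vldlr: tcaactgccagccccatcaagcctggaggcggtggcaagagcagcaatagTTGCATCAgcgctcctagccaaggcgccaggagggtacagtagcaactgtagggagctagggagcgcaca

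The matches lay 189 bases before the start in Chac1, 196 in Vldlr, 106 in Atf3 and Nupr1, 99 in Pycr1 and 19 in Asns, at the start in Slc1a4 and 18 bases after it in Trib3. The core of Asns, on the strand of the gene, reads TGATGAAA and that of Pycr1 TGATGCAA, and 5 others hold the reverse complement TTGCATCA, while Trib3 holds TTACATCA. Regions are chr6:7693169-7693288 for Asns, on the minus strand, chr1:191183380-191183499 for Atf3, on the minus strand, chr2:119350993-119351112 for Chac1, on the plus strand, chr7:126625517-126625636 for Nupr1, on the minus strand, chr11:120643788-120643907 for Pycr1, on the minus strand, chr11:20332664-20332783 for Slc1a4, on the minus strand, chr2:152344011-152344130 for Trib3, on the minus strand and chr19:27216770-27216889 for Vldlr, on the plus strand in GRCm38. A match is a description of the letters and not a measured binding site, and elements outside these windows were not searched.

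Of 8 transcription factors and regulators, 2 rose and 3 fell in C185G against WT (25.0% and 37.5%, near the 27.3% and 27.8% of all genes). Atf4, the central factor, read 681, 616, 598 and 623 normalized CPM in WT, 519.7, 550.1, 550.0 and 622 in C185Gneo and 499.6, 453, 482 and 475 in C185G. Each C185G library lay below each library of both other groups. The change of its mRNA was -0.40 against WT (SE 0.0622, adjusted p = 0.000107) and -0.23 against C185Gneo (adjusted p = 0.00623, and 0.0827 with quantile normalization). Atf3, a stress-induced repressor that also answers to cell handling, read 1786, 1530.3, 1542 and 1815 normalized CPM in WT, 1120.2, 1416, 1652 and 1842 in C185Gneo and 1034, 928, 1114 and 994 in C185G. Again the C185G libraries lay below all others, while C185Gneo reached from below to above the WT range. The change was -0.71 against WT (SE 0.127, adjusted p = 0.000399) and -0.55 against C185Gneo (adjusted p = 0.00258). Cebpb, a partner of ATF4, read 98.1, 99.97, 110.1 and 104 normalized CPM in WT, 79.5, 76.4, 109 and 114 in C185Gneo and 64.4, 77.1, 97.8 and 74.8 in C185G. All C185G libraries lay below all WT libraries and overlapped with those of C185Gneo. It fell by 0.41 against WT (adjusted p = 0.029). That call was lost without WT replicate 3 (-0.37, adjusted p = 0.0711), WT replicate 4 (-0.40, adjusted p = 0.0586), C185G replicate 1 (-0.32, adjusted p = 0.082), C185G replicate 2 (-0.40, adjusted p = 0.056) or C185G replicate 4 (-0.39, adjusted p = 0.0676), and with library totals (-0.33, adjusted p = 0.0603). Against C185Gneo Cebpb changed by -0.26 (adjusted p = 0.133). It was called without C185Gneo replicate 2 (-0.36, adjusted p = 0.0492) or C185G replicate 3 (-0.37, adjusted p = 0.0322).

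Immediate early genes were lower as well. In a list of 22 such genes, which respond to stimulation and to tissue dissociation, 14 were lower and 3 higher in C185G against WT (median -0.48). These are 63.6% and 13.6%, beside 27.8% and 27.3% of all genes. Nr4a1 (-1.56), Nr4a2 (-0.98) and Nr4a3 (-1.10) were among the lower. The higher ones were Myc (0.93), Fosl1 (0.52) and Dusp1 (0.45). The summed level of that list was 14446 to 16479 in WT, 11952 to 15433 in C185Gneo and 10397 to 11713 in C185G. Whether that response had a part in the lower Atf3, Atf4 and Cebpb was not tested.

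Of the other factors and regulators, Atf5 and Trib3 rose in C185G against WT, while Ddit3, Nupr1 and Cebpg were not called in that comparison. Atf5, a factor of the same family whose gene is an ATF4 and CHOP target, read 61.8, 62.1, 62.2 and 65.7 normalized CPM in WT, 61.1, 65.6, 63.5 and 65.3 in C185Gneo and 146, 109.8, 102 and 103 in C185G. All C185G libraries lay above all others, with a change of 0.86 against WT (SE 0.0921, adjusted p = 3.86e-06). Trib3, a pseudokinase that binds ATF4 and restrains it, read 29.00, 26.1, 27.4 and 21.8 normalized CPM in WT, 29.5, 25.95, 17.8 and 23.2 in C185Gneo and 95.3, 53.7, 65.4 and 70.2 in C185G. The lowest C185G library exceeded the highest of the other 8, and the mean was 2.73-fold that of WT (log2 fold change 1.42, SE 0.178, adjusted p = 2.82e-05). Ddit3, which encodes CHOP, read 31.9, 35.2, 30.4 and 28.7 normalized CPM in WT, 24.8, 24.1, 24.7 and 27.3 in C185Gneo and 45.6, 26.4, 34.9 and 44.2 in C185G. C185G replicate 2 lay below every WT library and the other 3 C185G libraries ranged from inside the WT range to above it. Ddit3 changed by 0.23 against WT with a 95% interval of -0.08 to 0.53 (adjusted p = 0.187), and was called without C185G replicate 2 (0.39, adjusted p = 0.00603). Against C185Gneo, whose 4 libraries all lay below the WT libraries and with which C185G replicate 2 still overlapped, Ddit3 was 0.55 higher (adjusted p = 0.00473). Nupr1, a small chromatin protein of the stress response, was 449.9 ± 10.7 in WT, 407 ± 28.5 in C185Gneo and 478 ± 49.5 in C185G, and was called higher only against C185Gneo (0.23, adjusted p = 0.0155, and 0.051 without C185Gneo replicate 3). Against WT it was called without C185G replicate 2 (0.16, adjusted p = 0.0461) and with quantile normalization (adjusted p = 0.0447). Cebpg, another partner of ATF4, changed by 0.13 and 0.14 against WT and C185Gneo (adjusted p = 0.132 and 0.0963). With library totals it was called in both (0.21, adjusted p = 0.018, and 0.20, adjusted p = 0.0189), and against C185Gneo also without C185G replicate 2 (adjusted p = 0.0491) or C185G replicate 4 (adjusted p = 0.0449). Exons of Ddit3 overlap those of Mars on the opposite strand, Mars rose by 0.45 in C185G against WT, and exons of Atf5 overlap Il4i1. Those of Cebpb, Ppp1r15a, Ppp1r15b and Aldh1l2 likewise overlap a measured gene on the opposite strand (Tmem189, Tulp2, Gm26616 and D10Wsu102e). The strand setting of the counting is not given, so reads of such pairs cannot be told apart.

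**Figure D2:**
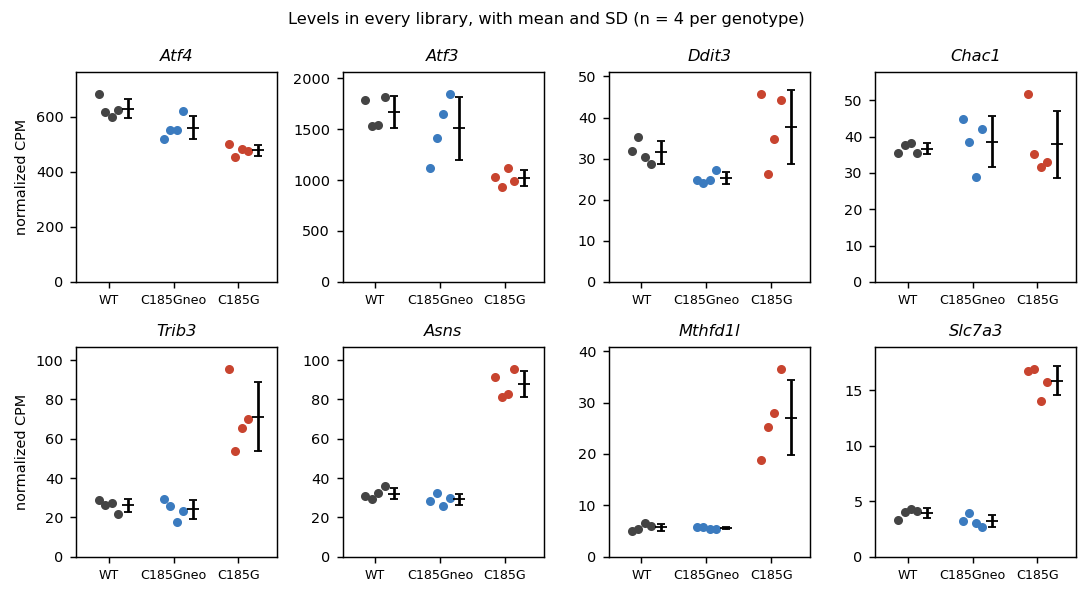
Normalized CPM of 8 genes in every library (points), with the mean and SD of each genotype in black (n = 4). Atf4 and Atf3 are lowest in C185G, Ddit3 and Chac1 overlap between C185G and WT, and Trib3, Asns, Mthfd1l and Slc7a3 stand apart in C185G.

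Of 6 genes that control translation and growth, 1 was higher and 2 were lower in C185G against WT (16.7% and 33.3%, beside 27.3% and 27.8% of all genes). Eif4ebp1, which encodes the 4E-BP1 repressor of cap-dependent initiation, read 20.02, 22.01, 23.4 and 18.2 normalized CPM in WT, 20.7, 20.5, 14.04 and 16.5 in C185Gneo and 57.2, 46.3, 54.2 and 53.8 in C185G. The C185G libraries were all above the rest, at 2.53-fold the WT mean (log2 fold change 1.34, SE 0.123, adjusted p = 8.86e-07). Eif2ak4, the gene of the eIF2α kinase GCN2, read 62.6, 69.5, 69.05 and 62.2 normalized CPM in WT, 75.8, 67.1, 72.2 and 67.7 in C185Gneo and 44.8, 41.5, 49.4 and 47.6 in C185G, with C185G below all other libraries. It fell by 0.52 against WT (adjusted p = 2.06e-05) and fell by 0.63 against C185Gneo (adjusted p = 3.56e-06). Ppp1r15a encodes GADD34, the inducible subunit of the phosphatase that resets eIF2α. Its level was 653, 569.8, 547 and 556 normalized CPM in WT, 575, 595, 602 and 681 in C185Gneo and 508, 398, 447 and 438 in C185G. No C185G library reached the lowest library of either control group, and the change was -0.38 against WT (adjusted p = 0.00126) and -0.46 against C185Gneo (adjusted p = 0.00028). Ppp1r15b, the constitutive subunit, moved little, from 165 ± 8.14 in WT and 170.1 ± 4.62 in C185Gneo to 151 ± 7.81 in C185G. Its change was -0.13 against WT (adjusted p = 0.0541) and -0.17 against C185Gneo (adjusted p = 0.0129, and 0.0917 with library totals). The first was called without WT replicate 3 (-0.16, adjusted p = 0.0189) or C185G replicate 2 (-0.16, adjusted p = 0.0288), with a minimum mean of 5 CPM (adjusted p = 0.0462) and with median-of-ratios scaling (adjusted p = 0.0436). The mTORC1 inhibitors Sesn2 (0.08, 95% interval -0.08 to 0.23, adjusted p = 0.376) and Ddit4 (-0.16, 95% interval -0.56 to 0.25, adjusted p = 0.499) were not called against WT, nor against C185Gneo (adjusted p = 0.312 and 0.413).

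All 7 serine and one-carbon enzymes rose in C185G, against WT by 0.73 to 2.20 and against C185Gneo by 0.93 to 2.23, and their C185G libraries overlapped with no control library. Over all genes 27.3% were higher against WT and 29.2% against C185Gneo. The summed level of the 7 enzymes was 101 to 117 in WT, 84.9 to 113 in C185Gneo and 232 to 296 in C185G. Upstream steps make serine from a glycolytic intermediate. Phgdh, the dehydrogenase that opens that route, read 11.8, 11.5, 10.5 and 8.44 normalized CPM in WT, 10.99, 9.61, 6.37 and 7.49 in C185Gneo and 39.8, 38.1, 35.1 and 46.01 in C185G. C185G stood at 3.77-fold the WT mean (log2 fold change 1.92, SE 0.161, adjusted p = 4.47e-07). The transaminase gene Psat1 rose from 42.2 ± 2.67 in WT to 70.7 ± 9.95 in C185G (0.73, adjusted p = 7.38e-05). Psph, the phosphatase of the last step, rose from 5.85 ± 0.475 to 14.2 ± 1.86 (1.27, adjusted p = 6.95e-07). Psph exons overlap a transcript of the chaperonin gene Cct6a on the opposite strand, so its reads are uncertain.

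The other 4 of the 7 enzymes take serine-derived carbon through the mitochondrial folate pathway. Mthfd1l, which releases formate, read 5.03, 5.32, 6.63 and 5.98 normalized CPM in WT, 5.82, 5.72, 5.47 and 5.40 in C185Gneo and 18.7, 25.2, 27.9 and 36.5 in C185G, and every C185G library exceeded every control library. At 4.72-fold the WT mean it had the largest change of the 38 genes in C185G against WT (log2 fold change 2.20, SE 0.162, adjusted p = 1.13e-07). Aldh1l2, the mitochondrial formyltetrahydrofolate dehydrogenase, read 3.26, 3.22, 4.24 and 3.76 normalized CPM in WT, 3.85, 4.45, 3.39 and 3.48 in C185Gneo and 12, 13.04, 14.4 and 14.8 in C185G, again with no overlap. It rose by 1.90 (SE 0.13, adjusted p = 5.86e-08) from 57 to 76 counts per WT library. Mthfd2, the dehydrogenase and cyclohydrolase, rose from 20.2 ± 2.90 to 61.2 ± 14.4 (1.58, adjusted p = 3.98e-06). Shmt2, the hydroxymethyltransferase that feeds the pathway, rose from 22.7 ± 2.94 to 41.2 ± 6.76 (0.86, adjusted p = 4.89e-05). Mthfd2l, the mitochondrial isozyme of Mthfd2 and not among the 38, was not called. It was 7.40 ± 1.29 in WT and 7.15 ± 0.577 in C185G, with a change of -0.04 (95% interval -0.35 to 0.27, adjusted p = 0.841), and of 0.02 against C185Gneo.

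The cytosolic enzymes Mthfd1, Aldh1l1 and Shmt1, which are not among the 38, were not called higher either. Mthfd1 fell from 267 ± 16.7 in WT to 121 ± 17.4 in C185G (-1.15, adjusted p = 1.44e-07). Aldh1l1 fell from 90.1 ± 11.7 to 39.7 ± 5.46 (-1.18, adjusted p = 1.12e-06). Shmt1 was 34.8 ± 3.72 and 38.1 ± 0.918 and changed by 0.14 (95% interval -0.02 to 0.30, adjusted p = 0.136). Against C185Gneo the changes were -1.26, -1.42 and 0.05 for these genes in that order. Cell cycle activity also draws on these pathways. Of 11 proliferation markers 9 were higher and 1 lower in C185G against WT (81.8% and 9.09%, beside 27.3% and 27.8% of all genes). Their changes ran from -1.56 to 2.39 with a median of 1.77, and 9 of them were above 1. Their summed level was 217 to 297 in C185G, beside 159 to 171 in WT and 154 to 199 in C185Gneo. What part cell cycle activity had in the enzyme levels was not tested.

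**Figure D3:**
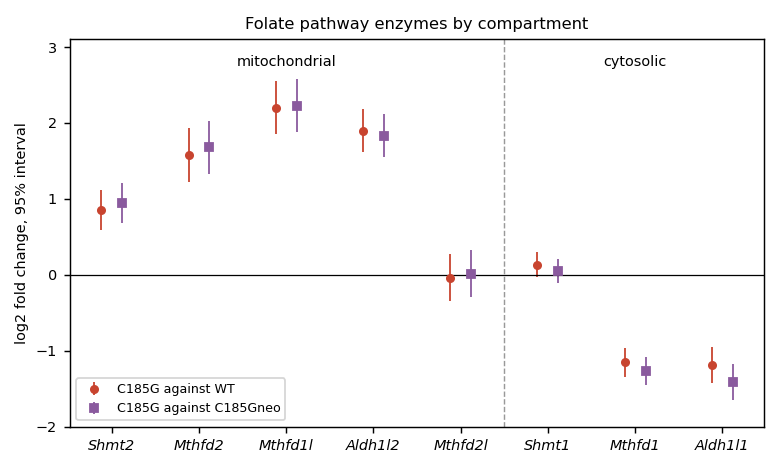
Log2 fold change with 95% interval (limma) of 8 folate pathway enzymes in C185G against WT (circles) and against C185Gneo (squares), which share the C185G libraries. Mitochondrial Shmt2, Mthfd2, Mthfd1l and Aldh1l2 lie above 0, cytosolic Mthfd1 and Aldh1l1 lie below it, and the intervals of mitochondrial Mthfd2l and cytosolic Shmt1 span it in both comparisons.

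Among other amino acid enzymes 3 of 5 rose and 1 fell in C185G against WT, where 27.3% of all genes were higher and 27.8% lower. Asns, asparagine synthetase and the best known amino acid response gene, read 30.7, 29.4, 32.2 and 35.9 normalized CPM in WT, 28.2, 32.4, 26.1 and 30.01 in C185Gneo and 91.6, 81.4, 82.8 and 95.3 in C185G. The C185G libraries formed a narrow band far above the rest, at 2.74-fold the WT mean (log2 fold change 1.45, SE 0.083, adjusted p = 1.15e-08). Aldh18a1, which starts proline synthesis from glutamate, read 21.9, 20.9, 22.6 and 19.2 normalized CPM in WT, 23.5, 22.7, 18.4 and 19.7 in C185Gneo and 50.4, 36.6, 33.2 and 42.7 in C185G. Pycr1, which ends it, read 6.35, 5.04, 5.02 and 5.92 normalized CPM in WT, 5.35, 5.39, 4.76 and 4.88 in C185Gneo and 8.76, 8.38, 11.3 and 9.61 in C185G. Both were higher in every C185G library than in any control library, by 0.93 (adjusted p = 2.01e-05) and 0.77 (adjusted p = 0.00014) against WT. Cth, cystathionine gamma-lyase, which makes cysteine, read 52.97, 50.5, 59.7 and 48.1 normalized CPM in WT, 47.98, 49.8, 64.3 and 67.3 in C185Gneo and 47.3, 32.8, 29.5 and 34.9 in C185G. The highest C185G library lay just under the lowest of the controls, and Cth fell by 0.57 against WT (adjusted p = 0.0053) and fell by 0.67 against C185Gneo (adjusted p = 0.00162). Gpt2, the mitochondrial alanine transaminase, was 33.02 ± 0.230 in WT and 35.4 ± 12.2 in C185G, where replicate 1 held 52.9 and the other 3 libraries 26.2 to 34.3. It was not called (0.04 against WT, 95% interval -0.32 to 0.41, adjusted p = 0.85), but without C185G replicate 1 it was lower than in C185Gneo (-0.32, adjusted p = 0.00518).

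Of 8 amino acid transporters 5 rose and 2 fell in C185G against WT (62.5% and 25.0%, beside 27.3% and 27.8% of all genes). The share that fell was near that of all genes. The 2 that fell were the most abundant per kilobase of exon next to Slc3a2. Slc7a3, a carrier of arginine and lysine, read 3.32, 4.02, 4.29 and 4.13 normalized CPM in WT, 3.25, 3.95, 3.03 and 2.73 in C185Gneo and 16.8, 16.9, 14.1 and 15.8 in C185G. Every C185G library stood far above every control library, and the mean was 4.03-fold that of WT (log2 fold change 2.01, SE 0.133, adjusted p = 4.35e-08). Slc7a1, the second carrier of these amino acids on the list, read 109.9, 111, 119 and 116 normalized CPM in WT, 116, 113, 88.2 and 116 in C185Gneo and 191, 167, 154 and 189 in C185G. It was 0.62 higher than in WT (adjusted p = 6.32e-05), with every C185G library above every control library. Slc7a5 and Slc3a2, which encode the light and heavy chain of the leucine exchanger LAT1, rose from 79.04 ± 6.58 to 119 ± 18.01 and from 445 ± 17.3 to 589 ± 39.9 (0.58, adjusted p = 0.000813, and 0.40, adjusted p = 0.000104). Slc1a4, a carrier of alanine, serine and cysteine, rose from 62.9 ± 9.75 to 104.6 ± 7.25 (0.74, adjusted p = 0.000418).

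The transporters that fell both carry glutamine. Slc1a5, the exchanger ASCT2, read 519, 485, 493 and 478 normalized CPM in WT, 457, 506, 444 and 492 in C185Gneo and 333, 348, 388 and 387 in C185G. All C185G libraries lay below all controls, and the change was -0.44 (SE 0.0626, adjusted p = 4.61e-05) against WT and -0.38 against C185Gneo (adjusted p = 0.000144). Slc38a2, the sodium-coupled carrier SNAT2, read 1101, 1075, 944 and 865 normalized CPM in WT, 936, 864, 840.1 and 873 in C185Gneo and 763, 668, 744 and 692 in C185G. Here too C185G lay below all control libraries, with a change of -0.47 against WT (adjusted p = 0.000148) and -0.29 against C185Gneo (adjusted p = 0.00473). Per kilobase of exon, WT held 126 normalized CPM of Slc3a2, 118 of Slc1a5 and 113 of Slc38a2, against 1.04 of Slc7a3. The summed level of all 8 transporters was 2133 to 2415 in WT, 2025 to 2160 in C185Gneo and 2008 to 2243 in C185G. Slc6a9, a glycine carrier, was called against C185Gneo (0.35, adjusted p = 0.013) and changed by 0.17 against WT (95% interval -0.07 to 0.40, adjusted p = 0.21). Its exons overlap those of B4galt2 and Ccdc24 on the opposite strand.

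Of the remaining 4 genes, Gdf15 and Vldlr rose in C185G against WT, where 27.3% of all genes were higher. Against C185Gneo only Gdf15 was called higher, where 29.2% of all genes were. Gdf15, a secreted cytokine of cell stress and also a p53 target, read 55.6, 49.6, 68.8 and 50.2 normalized CPM in WT, 53.5, 52.1, 48.5 and 72.7 in C185Gneo and 121, 109, 150.0 and 145 in C185G. It was higher in each C185G library than in any other, at 2.34-fold the WT mean (log2 fold change 1.23, SE 0.145, adjusted p = 1.65e-05). Vldlr, a lipoprotein receptor, read 50.7, 55.05, 51.4 and 43.2 normalized CPM in WT, 82.5, 53.5, 56.8 and 49.1 in C185Gneo and 55.3, 72.8, 91.5 and 98.7 in C185G. The C185G and WT libraries did not overlap, but C185Gneo replicates 1 and 3 lay inside the C185G range. It rose by 0.64 against WT (adjusted p = 0.0143) and was not called against C185Gneo (0.39, adjusted p = 0.101), except without C185Gneo replicate 1 (0.55, adjusted p = 0.0153) or C185G replicate 1 (0.55, adjusted p = 0.0149). Endothelial cells also express Vldlr. Of 14 measured endothelial markers 8 were lower in C185G against WT (57.1%, beside 27.8% of all genes). The summed level of these markers was 315 to 401 in WT, 303 to 399 in C185Gneo and 275 to 304 in C185G. Their part in the level of Vldlr was not tested.

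Chac1, which degrades glutathione and is known as a sensitive ATF4 and CHOP target, read 35.5, 37.6, 38.2 and 35.5 normalized CPM in WT, 44.9, 38.5, 28.7 and 42.1 in C185Gneo and 51.6, 35.2, 31.6 and 32.9 in C185G. C185G replicate 1 was the highest of all libraries and the other 3 lay below the lowest WT library. The change of 0.01 against WT had a 95% interval of -0.32 to 0.35 (adjusted p = 0.945), and against C185Gneo the interval was -0.38 to 0.30. Stc2, a secreted glycoprotein, read 6.58, 5.26, 8.14 and 4.31 normalized CPM in WT, 10.1, 7.67, 2.86 and 7.14 in C185Gneo and 8.45, 5.54, 5.83 and 8.50 in C185G. It was low and overlapped between all groups, and its change of 0.23 had an interval of -0.51 to 0.97 (adjusted p = 0.587).

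No gene of the 38 was called in the hypomorphic genotype. In C185Gneo against WT limma called 0 of the 38 genes in either direction, where it called 0.541% of all genes, 0.249% higher and 0.292% lower (smallest adjusted p 0.378, for Atf4), and voom weights also called 0. At an unadjusted p under 0.05 there were 4 of 38, Atf4 (-0.17), Ddit3 (-0.32), Slc38a2 (-0.18) and Slc7a3 (-0.29), all lower, where 1534 of 16080 genes had such a p. The median change was -0.04, and 95% intervals of all 38 genes lay between -0.66 and 0.84. Groups stood apart for 2 genes, Ddit3 below and Gpt2 above WT, where 6.86% of all genes did (3.29% below and 3.57% above). Phgdh was at -0.31, Trib3 at -0.13, Asns at -0.14 and Gdf15 at 0.01 in this comparison, beside 1.92, 1.42, 1.45 and 1.23 in C185G against WT, which uses the same WT libraries. Sftpc itself fell by 3.07 in C185Gneo and by 1.40 in C185G against WT.

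**Figure D4:**
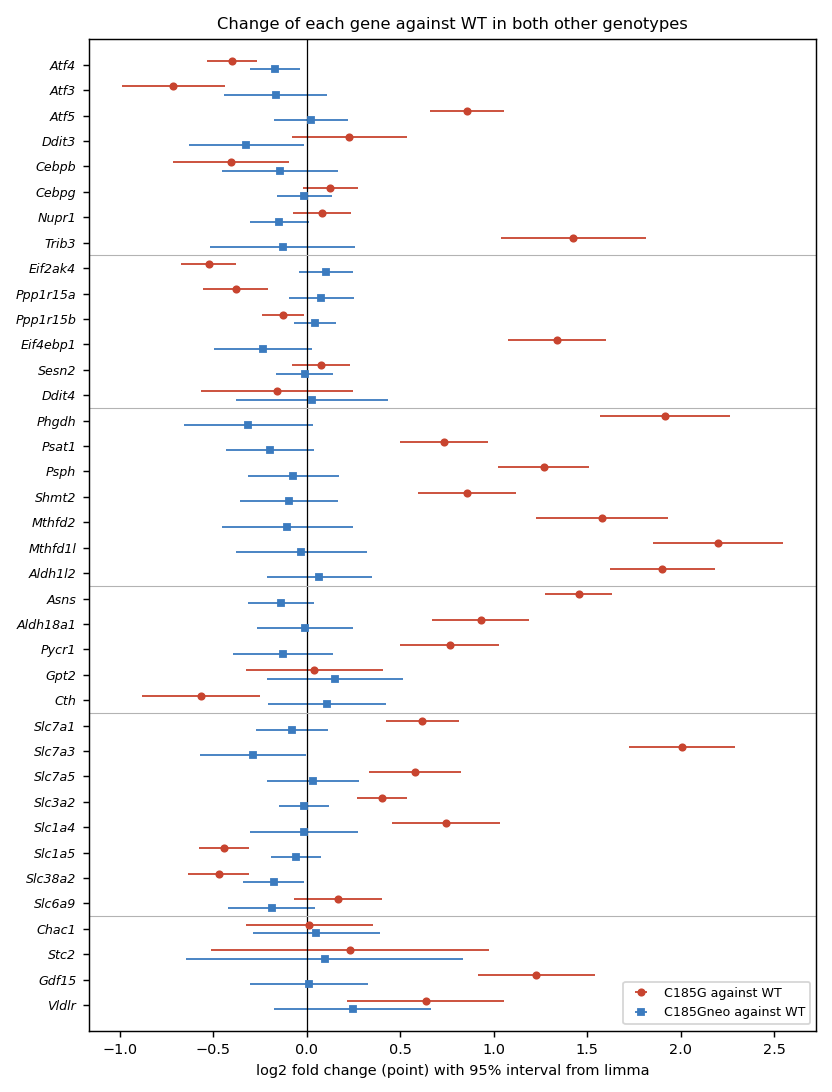
Log2 fold change with 95% interval (limma) of each of the 38 genes against WT, in C185G (circles) and C185Gneo (squares), which share the WT libraries; grey lines separate the roles. The C185Gneo points lie between -0.32 and 0.25, while the C185G points run from -0.71 for Atf3 to 2.20 for Mthfd1l.

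Several genes varied widely among the C185G libraries, and those named here were chosen after their values were seen. The coefficient of variation in C185G was 24.6% for Trib3, 23.8% for Ddit3, 24.6% for Chac1 and 18.2% for Atf5, against 11.8%, 8.81%, 3.80% and 2.93% in WT. It was 7.67% for Asns and 8.28% for Slc7a3. C185G replicate 1 held the highest C185G level for 19 of the 38 genes and replicate 2 the lowest for 18, with median deviations of 0.08 and -0.12 (log2) from the group mean. Mthfd1l instead had its lowest C185G level in replicate 1 and its highest in replicate 4. In C185Gneo, replicate 1 was highest for 19 genes and replicate 3 lowest for 19.

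Further components of the pathway were taken from lists outside the 38. Of 16 genes of the eIF2 kinases, eIF2, eIF2B and their cofactors, 9 were higher and 3 lower in C185G against WT (median 0.33). These are 56.3% and 18.8%, beside 27.3% and 27.8% of all genes. Impact, an inhibitor of GCN2 activation, rose from 33.95 ± 2.50 to 108 ± 9.22 (1.67, adjusted p = 2.1e-09). The eIF2 subunit genes Eif2s2 (0.65) and Eif2s1 (0.58) and the eIF2B subunit gene Eif2b1 (0.76) rose. Oma1, the mitochondrial protease that relays mitochondrial stress to HRI, fell by 0.63, Dnajc3, an inhibitor of PERK, fell by 0.18 and Gcn1l1, the activator of GCN2, fell by 0.13. Eif2ak3, the gene of PERK, was 65.7 ± 5.78 in WT and 64.4 ± 2.24 in C185G (-0.03, 95% interval -0.20 to 0.14, adjusted p = 0.801).

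All 12 cytosolic tRNA synthetase genes of a list rose in C185G against WT (0.33 to 0.96, median 0.70), among them Aars by 0.96, Nars by 0.85, Sars by 0.91 and Eprs by 0.61. Of 20 measured further ATF4 and CHOP targets, 8 were higher and 6 lower (median 0.17). These are 40.0% and 30.0%, beside 27.3% and 27.8% of all genes. Lonp1, a mitochondrial protease, rose from 90.5 ± 1.62 to 239 ± 13.5 (1.40, adjusted p = 1.77e-10) and Rhbdd1, a rhomboid protease, by 0.60. Adm2, a secreted peptide, had 15 to 35 counts per WT library and rose from 1.29 ± 0.480 to 18.7 ± 3.96 (3.86, adjusted p = 6.24e-07). Bcl2l11, which encodes the death protein BIM and is a CHOP target, fell from 186 ± 21.7 to 62.1 ± 5.97 (-1.58, adjusted p = 2.19e-08), and Vegfa (-0.67), Nfil3 (-0.42), Klhl24 (-0.23), Akna (-0.30) and Herpud1 (-0.46) were lower too. Of 13 measured one-carbon and serine genes outside the 38, 4 were higher and 5 lower (30.8% and 38.5%, median 0.14). Ahcy (0.92) and Amt (0.47) were among the higher, and Mat2a (-0.67), Cbs (-0.43) and Mtr (-0.32) were lower next to Mthfd1 and Aldh1l1.

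**Figure D5:**
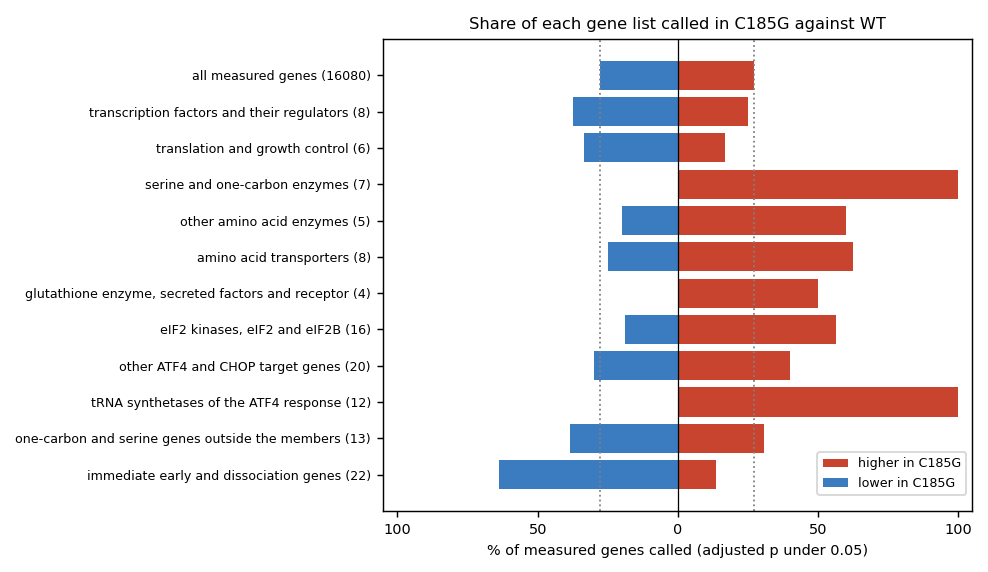
Share of the measured genes of each list (number in brackets) called higher (red, to the right) or lower (blue, to the left) in C185G against WT by limma at adjusted p under 0.05; dotted lines mark the shares over all 16080 genes, 27.3% higher and 27.8% lower. Serine and one-carbon enzymes and tRNA synthetases reach 100% higher, and immediate early genes are mostly lower.

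Markers of other cells stood beside these changes as follows in C185G against WT. Over all genes 27.3% were higher and 27.8% lower in this comparison, and 29.2% were higher against C185Gneo. Of 12 mesenchymal markers 2 were higher, with sums of 588 to 897 in WT, 251.4 to 668 in C185Gneo and 855 to 1154 in C185G, and 10 of 12 were higher in C185G than in C185Gneo. Of 11 measured myeloid markers, 4 were higher and 1, Lyz2, which AEC2 also express, was lower. The median change of the 11 was 0.24, with 7 above 0 and 4 below. Their sum, which includes Lyz2, was 5560 to 6324 in WT, 5956 to 6237 in C185Gneo and 1238 to 1942 in C185G. That sum fell although most of these markers did not. Of 10 alveolar type 1 markers 3 were higher and 1 lower (sums of 2119 to 2728 in WT, 2055 to 2559 in C185Gneo and 2184 to 2840 in C185G). Of 11 club, goblet and ciliated markers 4 were lower (sums of 6418 to 8824, 6699 to 8339 and 5349 to 6407 in the same order). No measured marker was at 0 in all libraries of a group, and the part of these cells in the ATF4 genes was not tested.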

How the data were processed

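RNA from 12 AEC2 preparations (3 genotypes, 4 libraries each) was sequenced. Reads were handled with STAR, mm10 and limma, per the submitters' processing notes; the sources used here state no counting tool, annotation or strand setting. The deposited table holds log2 values, normalized by the authors with 1 factor per library. Its values equal log2 of a whole number plus 0.5, times that factor, and 100% were whole within 1e-06, so read counts were recovered from the deposited values as an added check. Symbols came from GENCODE mouse release 21 (16017 of 16080 IDs).

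Changes were tested on the log2 values with limma 3.58.1 (R 4.3.3, trended and robust) over all 12 libraries, with Benjamini-Hochberg adjustment over 16080 genes and called under 0.05. On counts simulated for C185G against WT over 16080 genes, 100% of 100 genes changed by 1 (log2) and 28% of 100 changed by 0.5 were called. Only those genes were changed, and all genes were given the same fixed dispersion between libraries. The changed genes were drawn only from genes above a minimum mean count, so the shares do not cover genes with low counts. In the data 55.0% of genes were called, so the simulated shares do not give the share of such changes missed here. Promoter windows came from RefSeq. Alternatives are given in the closing section. The 38 genes and all lists were chosen with earlier results of these data known. Library values are given for 3 genes per role with the smallest p in C185G against WT, for each that fell there, and for Atf4, Ddit3, Chac1 and Trib3. Genes of other lists were named by smallest p (up to 4), plus called ones against the common direction. Some genes of these lists are not reported here. Replicate numbers did not pair libraries (same-number correlations -0.126 to 0.182).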

Additional observations from a re-analysis of the deposited data

Results flagged for a closer look

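Within a genotype, 1 library stood far from the other 3 for 4 of 114 gene and genotype combinations. The measure was its gap to the nearest library over the whole range of the group, against Dixon's 95% value for groups of 4, and chance flags about 1 in 20 such groups. WT replicate 4 held 65.7 normalized CPM of Atf5, where the other WT libraries held 61.8 to 62.2. C185G replicate 2 held 142 normalized CPM of Sesn2, where the others held 165 to 167. C185Gneo replicate 3 held 88.2 normalized CPM of Slc7a1, where the others held 113 to 116. C185Gneo replicate 1 held 46.1 normalized CPM of Slc1a4, where the others held 65.7 to 69.7.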

How the results depend on the processing

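Settings with all libraries were library totals, quantile normalization, a minimum mean of 5 CPM, no mean-variance trend, voom weights, 2 added to each count, the 8 libraries compared and, chosen after seeing the data, median-of-ratios scaling. In C185G against WT they called 20 to 21 of the 38 genes higher and 7 to 9 lower (median change 0.48 to 0.57), and without 1 library each 20 to 22 and 7 to 8 (0.44 to 0.54). Against C185Gneo the ranges were 22 to 23 and 7 to 8 (0.47 to 0.54), and without 1 library each 21 to 23 and 8 to 9 (0.43 to 0.55). In C185Gneo against WT each of these limma and voom fits called 0, and the reported limma fit had 4 genes at an unadjusted p under 0.05. With replicate number as a replicate block, the calls were 20 higher and 8 lower, 0 in C185Gneo against WT, and 22 higher and 9 lower against C185Gneo, where Cebpb was added (adjusted p = 0.0408). Of 1938 single-gene values, 9 lost a call, 17 gained one, and 48 changed sign with no call under either setting; the cause was not tested. Genes whose call changed were Cebpb, Cebpg, Ddit3, Nupr1, Ppp1r15b, Atf4, Gpt2 and Vldlr.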
